A study of Mus musculus with 35 samples.

Results

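Immature neurons express a set of genes for the cytoskeleton and membrane of the growing axon, together with transcription factors and other proteins of young neurons, and 10 such genes were followed here across all 35 libraries of the series: *Dcx*, *Stmn1*, *Stmn2*, *Crmp1*, *Dpysl3*, *Gap43*, *Marcksl1*, *Sox4*, *Sox11* and *Nnat*. They were chosen by name for this role, and all 10 were found among the 35976 gene symbols of the count tables. RNA was measured by RNA-seq in the medulla and the cervical spinal cord of WT C57Bl/6J mice and of SCA7 266Q/5Q mice, which carry a long CAG repeat knocked into 1 copy of *Atxn7* at its own locus (266 and 5 glutamines on the 2 alleles) and model infantile spinocerebellar ataxia type 7, with both tissues taken from the same mouse. At 9 weeks each tissue had 5 WT and 5 SCA7 mice, at 5 weeks 2 and 2, and at postnatal day 8 (P8) 2 and 2 in the medulla but 1 WT and 2 SCA7 in the cervical spinal cord, 18 mice in all, with a different mouse at each age. Males and females were used without a sex label for each library, and whole pieces of tissue were taken, so that fewer cells of a type and less RNA per cell cannot be told apart in any result given here.

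Neurons that have left the cell cycle extend an axon by moving a growth cone, in which microtubules and actin are rebuilt continuously under a growing membrane. The proteins that do this are abundant while tracts are being laid down and mostly decline once synapses and myelin form. In the hindbrain and spinal cord of the mouse much of axon growth is over at birth, while glia, late-born interneurons and the descending tracts still mature in the first weeks after it. Doublecortin (*Dcx*) binds and stabilizes microtubules in migrating neuroblasts and young neurons. The stathmins *Stmn1* and *Stmn2* bind tubulin dimers and favour microtubule turnover, *Stmn2* being largely neuronal. *Crmp1* and *Dpysl3* belong to the collapsin response mediator proteins, which couple semaphorin signals to the cytoskeleton. *Gap43* is a growth cone membrane protein, and *Marcksl1* is a relative of MARCKS that links the membrane to actin. *Sox4* and *Sox11* are SoxC transcription factors that activate neuronal genes in newborn neurons. *Nnat*, neuronatin, is an imprinted gene expressed from the paternal copy, and encodes a small proteolipid of the endoplasmic reticulum.

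On the GRCm38.p6 assembly in RefSeq, *Nnat* is at chr2:157560078-157562525 on the plus strand and lies within the span of *Blcap* (chr2:157556362-157566361) on the opposite strand, with 0 shared exon bases. *Stmn2* is at chr3:8509527-8561604, *Marcksl1* at chr4:129513581-129515981, *Stmn1* at chr4:134468320-134473843 and *Crmp1* at chr5:37242058-37292163, all on the plus strand. *Sox11* is at chr12:27334268-27342718, *Sox4* at chr13:28948919-28953699, *Gap43* at chr16:42248552-42340651 and *Dcx* at chrX:143855842-143933396, all on the minus strand. An antisense lincRNA shares 54.6% of the exon bases of *Sox4* and was not a symbol of the tables. Whether reads were counted by strand was not given, so *Sox4* counts could include reads of that transcript. Near-identical copies of *Marcksl1* and *Stmn1* are also symbols of the tables, and reads that map to several places had been removed by the authors.

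The stretches just upstream of 4 of these genes are shown because the genes fell together after P8 or, for *Nnat*, differed between the genotypes. Each is the 250 bases before the RefSeq start, written 5′ to 3′ on the strand of the gene, with capitals marking matches on either strand to 6 short words, which may overlap. These were TATAAA (as in the TATA box), CCAAT (the CCAAT box), GGGCGG (the GC box), TGACG (part of the cyclic AMP response element), CAGCTG (an E-box) and ACAAAG (a word that SOX proteins can bind).
Nnat (chr2:157559828-157560077, plus strand): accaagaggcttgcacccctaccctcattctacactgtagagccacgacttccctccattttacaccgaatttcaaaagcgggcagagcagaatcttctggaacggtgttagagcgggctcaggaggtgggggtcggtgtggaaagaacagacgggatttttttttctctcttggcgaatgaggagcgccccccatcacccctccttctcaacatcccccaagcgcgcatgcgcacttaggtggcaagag
Marcksl1 (chr4:129513331-129513580, plus strand): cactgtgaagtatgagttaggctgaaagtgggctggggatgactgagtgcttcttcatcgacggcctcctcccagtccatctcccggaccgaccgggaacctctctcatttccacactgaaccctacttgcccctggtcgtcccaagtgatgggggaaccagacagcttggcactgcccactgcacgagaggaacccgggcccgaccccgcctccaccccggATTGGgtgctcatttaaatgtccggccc
Sox4 (chr13:28953700-28953949, minus strand): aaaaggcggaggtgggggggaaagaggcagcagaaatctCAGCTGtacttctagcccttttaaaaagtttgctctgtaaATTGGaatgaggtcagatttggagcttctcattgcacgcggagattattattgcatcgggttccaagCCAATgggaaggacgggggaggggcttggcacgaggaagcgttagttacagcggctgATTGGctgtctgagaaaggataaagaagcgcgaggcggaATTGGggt
Sox11 (chr12:27342719-27342968, minus strand): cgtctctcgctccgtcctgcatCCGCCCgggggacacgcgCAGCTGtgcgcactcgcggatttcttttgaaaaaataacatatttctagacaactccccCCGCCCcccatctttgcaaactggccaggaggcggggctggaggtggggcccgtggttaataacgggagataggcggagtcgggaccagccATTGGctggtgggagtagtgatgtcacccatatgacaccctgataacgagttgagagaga
Of 8 such windows that RefSeq starts gave for 6 of the genes (*Nnat*, *Marcksl1*, *Sox4*, *Sox11*, and a pair each for *Dcx* and *Crmp1*), CCAAT was in 4, as in 33.8% of all 32851 windows. *Sox4* held 4 copies of it, *Marcksl1* and *Sox11* 1 each. CAGCTG was in the windows of *Sox4* and *Sox11*, and in 13.0% of all. TATAAA was in both overlapping windows of *Dcx* and in 12.4% of all, and GGGCGG was in 3 windows, those of *Crmp1* and *Sox11*, and in 32.7% of all. TGACG was in 1 window, of *Crmp1* (17.8% of all), and ACAAAG in 3 windows, of *Crmp1* and *Dcx* (16.5% of all). The *Nnat* window held none of the 6 words, with a GC content of 54.8%.

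The libraries fell into 2 classes of depth. In 15 the tables summed to 28969003 to 99353286 counts, and in the other 20 to 95917 to 396417. Values are given as CPM, the share of a gene in the counts of a library after TMM scaling, and 1 count was worth 0.00872 to 0.0408 CPM in a deep library and 2.99 to 9.94 CPM in a shallow one, so that genes such as *Sox4* and *Sox11* rested on 0 to 3 counts in shallow libraries of adult mice. Of the 5 libraries in a 9-week group 2 were deep. At 5 weeks both WT medulla libraries were deep and both SCA7 medulla libraries shallow, and genotype and depth cannot be told apart there. Mitochondrially encoded genes took 2.89% to 12.1% of the counts in deep and 11.7% to 60.7% in shallow libraries, the highest being SCA7 medulla replicate 2 at 9 weeks. Shallow and deep libraries of 9 weeks were compared directly, a test added after the counts had been seen. *Stmn1* was higher in shallow libraries, by log2 values of 1.35 ± 0.17 for medulla (SE, adjusted P = 3.0e-06) and 1.02 ± 0.26 for cord libraries (adjusted P = 0.030), where 6.98% and 3.47% of all genes differed in either direction. *Crmp1* and *Gap43* were lower in shallow medulla libraries, by log2 values of -0.73 and -0.97 (adjusted P = 0.041 and 0.028). *Atxn7*, the gene that carries the repeat, was at 27.4 to 34.8 CPM in the deep WT libraries and at 33.5 CPM in the deep SCA7 library of P8, and at 9 weeks it was higher in deep SCA7 libraries (41.1 and 49.7 CPM in medulla, 46.6 and 56.2 CPM in cord) than in deep WT ones (30.0 to 34.3 CPM).

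The first question was how far these genes had fallen by adulthood in the WT tissue. Between P8 and 9 weeks, 9 of the 10 fell in each WT tissue, with log2 changes between -0.88 and -3.45 for the medulla and between -1.53 and -3.11 for the cord, and *Stmn1* was the exception in both. Of all genes tested, 14.8% were lower in this comparison in the medulla and 7.73% in the cord. The median log2 change over the 10 genes was -1.87 in the medulla, against -0.15 over all genes tested, and -2.49 against 0.01 in the cord. The WT cord at P8 is a single library, assumed in the fit to vary like the other groups. All p values are from the quasi-likelihood test of edgeR, adjusted over all genes tested, and errors of log2 changes are SEs.

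The genes differed widely in level before this fall. Per kilobase of annotated exon, the deep WT medulla libraries at P8 ranked *Marcksl1* first at 279 CPM per kb, then *Nnat* (172), *Gap43* (160), *Stmn2* (90.1), *Dpysl3* (74.3), *Stmn1* (42.4), *Crmp1* (33.7), *Sox4* (12.8), *Sox11* (5.44) and *Dcx* (5.31). *Sox11* and *Dcx* were within their spread of each other. In the deep WT medulla libraries of 9 weeks the order was *Gap43* (89.0 CPM per kb), *Nnat* (76.0), *Stmn1* (62.7), *Stmn2* (61.9), *Marcksl1* (27.4), *Dpysl3* (16.7), *Crmp1* (12.8), *Sox4* (1.95), *Sox11* (1.52) and *Dcx* (1.43). The ranges of *Gap43*, *Nnat*, *Stmn1* and *Stmn2* overlapped at that age, as did those of *Sox11* and *Dcx*. *Marcksl1* had moved from the first place to the fifth.

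**Figure D1:**
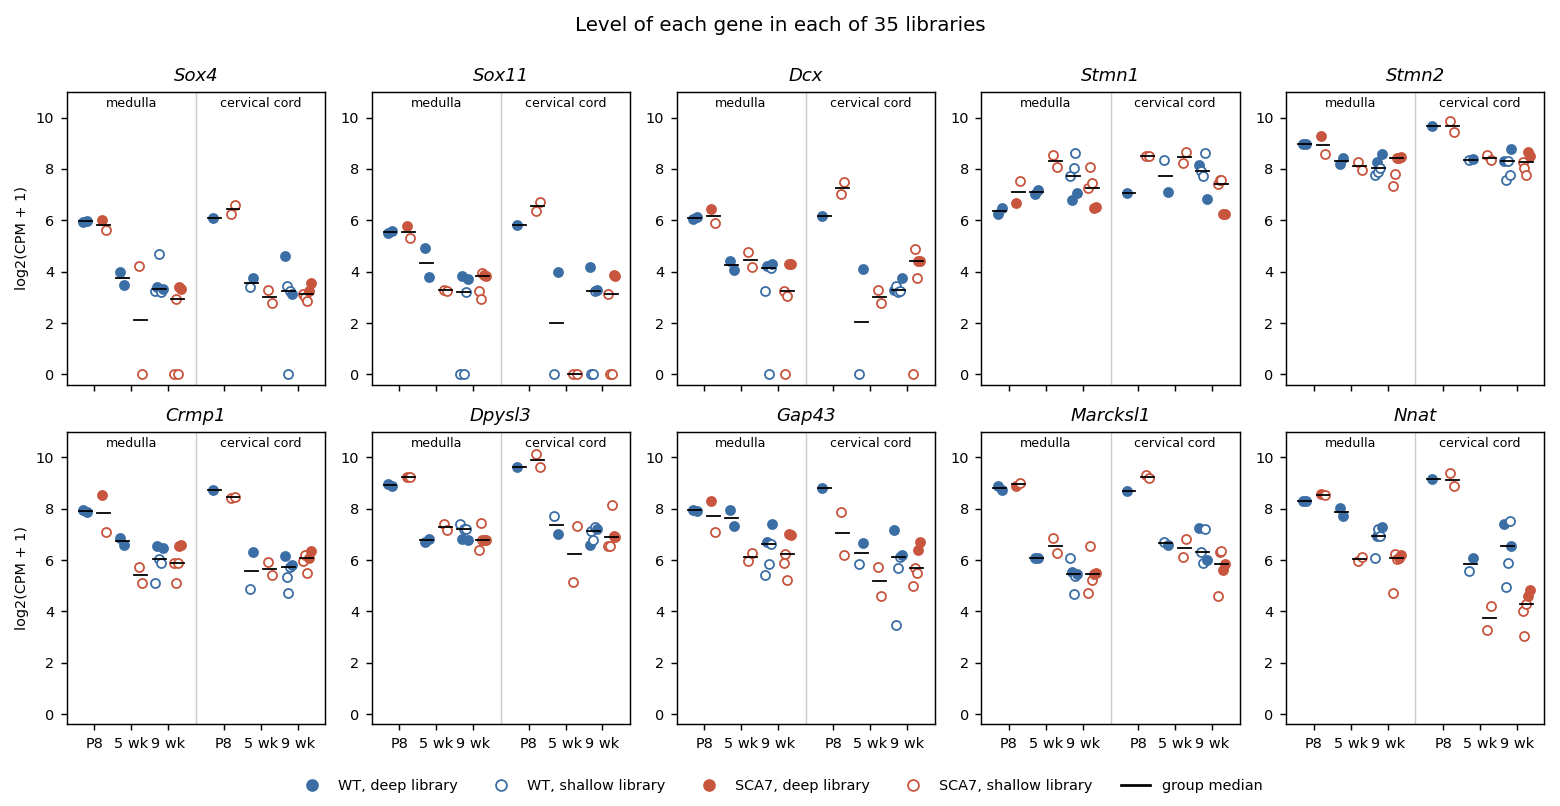
Level of each of the 10 genes as log2(CPM + 1) on the vertical axis in each of the 35 libraries, grouped by tissue, age and genotype on the horizontal axis, with filled points for deep and open points for shallow libraries and a line at the group median. Points at 0 are shallow libraries without a count, and the P8 groups stand highest within a tissue for each gene apart from *Stmn1*.

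*Marcksl1*, which ties actin to the membrane, fell most in the medulla. Its CPM in WT medulla was 469.7 and 426.7 at P8, 67.7 and 66.4 at 5 weeks, and 67.3, 45.2, 24.5, 41.1 and 42.7 at 9 weeks. The P8 libraries lay far above the rest without overlap, and the log2 change from P8 to 9 weeks was -3.45 ± 0.28 (adjusted P = 3.4e-07). In the SCA7 medulla it went from 478.2 and 513.8 CPM at P8 to 25.1 to 93.9 CPM at 9 weeks, a log2 change of -3.50 ± 0.29 (adjusted P = 6.3e-07). In the cord the change was -2.14 ± 0.42 in WT (adjusted P = 0.0019) and -3.52 ± 0.37 in SCA7 (adjusted P = 1.7e-05). The other membrane gene, *Gap43*, fell less in the medulla. Its CPM in WT medulla was 243.7 and 242.9 at P8, 249.8 and 159.5 at 5 weeks, and 42.1, 103.1, 57.1, 98.7 and 168.2 at 9 weeks, so that 1 library of 5 weeks was as high as those of P8. *Gap43* was lower at 9 weeks by a log2 value of -1.29 ± 0.37 in WT medulla (adjusted P = 0.018), -1.45 ± 0.38 in SCA7 medulla (adjusted P = 0.015) and -2.62 ± 0.54 in WT cord (adjusted P = 0.0028). In SCA7 cord the log2 value was -1.31 ± 0.50 (adjusted P = 0.18), where the P8 libraries had 236.5 and 72.6 CPM. The WT medulla call of *Gap43* held in 12 of 17 alternatives. Both P8 libraries of that comparison are deep, and *Gap43* read lower in the shallow medulla libraries of 9 weeks. Over the deep WT medulla libraries its mean went from 243.3 CPM at P8 to 135.6 CPM at 9 weeks.

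The SoxC factors fell together. *Sox4* was at 60.6 and 62.5 CPM in WT medulla at P8, at 14.9 and 10.2 CPM at 5 weeks and at 8.42, 9.65, 24.5, 8.22 and 9.08 CPM at 9 weeks, the value of 24.5 being 3 counts in a shallow library. All P8 values were above all later ones. Its log2 change by 9 weeks was -2.81 ± 0.27 in WT and -2.94 ± 0.29 in SCA7 medulla (adjusted P = 2.0e-06 and 4.1e-06), and -2.48 ± 0.51 and -3.31 ± 0.50 in WT and SCA7 cord (adjusted P = 0.0026 and 4.6e-04). *Sox11* was at 44.1 and 46.4 CPM in WT medulla at P8. At 9 weeks it was at 13.2 and 11.98 CPM in the deep libraries and at 0, 0 and 8.22 CPM in the shallow ones. The log2 change of *Sox11* was -2.06 ± 0.29 in WT medulla (adjusted P = 8.7e-05), -2.12 ± 0.33 in SCA7 medulla (adjusted P = 2.8e-04), -2.50 ± 0.66 in WT cord (adjusted P = 0.015) and -3.19 ± 0.62 in SCA7 cord (adjusted P = 0.0052).

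Among the microtubule genes, *Dcx* was at 65.5 and 68.8 CPM in WT medulla at P8, at 20.5 and 15.8 CPM at 5 weeks, and at 17.5 and 18.8 CPM in the deep libraries of 9 weeks. The 3 shallow WT libraries of 9 weeks held 0 to 2 *Dcx* counts. *Dcx* fell by a log2 value of -2.10 ± 0.26 in WT and -2.35 ± 0.29 in SCA7 medulla (adjusted P = 2.6e-05 and 3.3e-05), and of -2.94 ± 0.51 and -3.13 ± 0.45 in WT and SCA7 cord (adjusted P = 6.7e-04 and 3.2e-04). *Dpysl3* fell from 503.8 and 478.1 CPM to 110.3 to 168.3 CPM in WT medulla, a log2 change of -1.99 ± 0.23 (adjusted P = 1.2e-05), and by -2.46 ± 0.24, -2.74 ± 0.47 and -2.85 ± 0.40 in SCA7 medulla, WT cord and SCA7 cord. *Crmp1*, of the same protein family, fell from 244.3 and 230.9 CPM to 33.7 to 92.8 CPM in WT medulla, a log2 change of -1.74 ± 0.31 (adjusted P = 6.6e-04). The deep libraries of 9 weeks had 88.1 and 92.8 CPM there, and *Crmp1* read lower in the shallow ones. In the WT cord the fitted log2 change of *Crmp1* was -3.11 ± 0.34, the most negative of the 10 genes there. It went from 423.9 CPM in the P8 library to 25.0 to 71.0 CPM. Over the deep WT cord libraries of 9 weeks the mean was 62.8 CPM for *Crmp1*. For *Dcx* it was 10.6 CPM, from 71.3 at P8, and for *Dpysl3* 120.8 CPM, from 795.2 at P8. These falls were of like size, so the first place of *Crmp1* depends on the shallow libraries.

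*Stmn2* fell least of the 9 genes in both WT tissues. It was at 507.1 and 502.4 CPM in WT medulla at P8, at 292.4 and 341.8 CPM at 5 weeks and at 218.8, 306.4, 236.7, 263.2 and 386.7 CPM at 9 weeks. The groups did not overlap, and the log2 change was -0.88 ± 0.25 (adjusted P = 0.016), and -0.90 ± 0.25 in SCA7 medulla, -1.53 ± 0.32 in WT cord and -1.46 ± 0.27 in SCA7 cord (adjusted P = 0.022, 0.0035 and 0.0030). *Stmn1*, the other stathmin, did not pass the test in either direction with all libraries. It was at 74.1 and 88.9 CPM in WT medulla at P8 and at 129.5 and 143.2 CPM at 5 weeks, all deep libraries. At 9 weeks the deep libraries had 110.1 and 131.1 CPM and the shallow ones 210.4, 261.2 and 394.7 CPM. Each later library was above both P8 libraries, and the log2 change by 9 weeks was 1.25 ± 0.49 (adjusted P = 0.082). Among the deep WT medulla libraries alone it was 0.51 ± 0.11 and passed the threshold (adjusted P = 0.0099). In SCA7 medulla the log2 change of *Stmn1* was 0.09 ± 0.54 (adjusted P = 0.95) with all libraries and -0.28 among the deep ones, so no direction is given for it. In WT cord *Stmn1* was at 132.3 CPM in the P8 library, with a log2 change of 0.79 ± 0.64 (adjusted P = 0.49). In SCA7 cord it was at 359.2 and 362.9 CPM at P8 and at 74.4 to 187.8 CPM at 9 weeks, without overlap, and the log2 change was -1.54 ± 0.48 (adjusted P = 0.081). It passed in 5 of 18 alternatives. Both SCA7 cord libraries of P8 are shallow, the class in which *Stmn1* read higher at 9 weeks.

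*Nnat* was at 314.4 and 315.1 CPM in WT medulla at P8 and at 256.9 and 211.5 CPM at 5 weeks. At 9 weeks the 5 WT medulla libraries had 67.3, 120.9, 146.9, 123.4 and 157.3 CPM. The groups of P8 and 9 weeks did not overlap, with a log2 change of -1.39 ± 0.23 (adjusted P = 3.5e-04). In the SCA7 medulla *Nnat* changed by -2.63 ± 0.25 (adjusted P = 2.3e-06), from 377.2 and 368.4 CPM. In the WT cord the change was -2.47 ± 0.44 (adjusted P = 8.4e-04), and in the SCA7 cord -4.79 ± 0.41 (adjusted P = 1.4e-06), from 664.6 and 475.8 CPM at P8 to 7.19 to 27.9 CPM at 9 weeks. That was the largest fall of any of the 10 genes in any of the 4 comparisons of P8 with 9 weeks.

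Over the SCA7 libraries 9 of 10 genes fell in the medulla (9.89% of all genes lower) and 8 of 10 in the cord (2.77% of all genes lower). In the SCA7 medulla this count rests on the deep P8 library: without SCA7 medulla replicate 1 at P8, 3 of the 10 genes passed. Markers of neighbouring tissue also differed between ages in the cord. The summed level of cerebellar granule cell and granule precursor genes was 566 and 1210 CPM in the SCA7 cord libraries of P8 and 344 CPM in the WT one, against 84.4 to 156 CPM in SCA7 and 110 to 207 CPM in WT cord at 9 weeks. Choroid plexus and ependyma genes summed to 769 and 6427 CPM in the SCA7 cord at P8 and 48.3 CPM in the WT cord, against 31.2 to 61.4 and 19.9 to 79.6 CPM at 9 weeks. *Neurod1*, which granule cells express, was at 50.8 and 40.2 CPM in SCA7 cord and 8.89 CPM in WT cord at P8. The part of these tissues in the falls of the 10 genes was not tested.

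**Figure D2:**
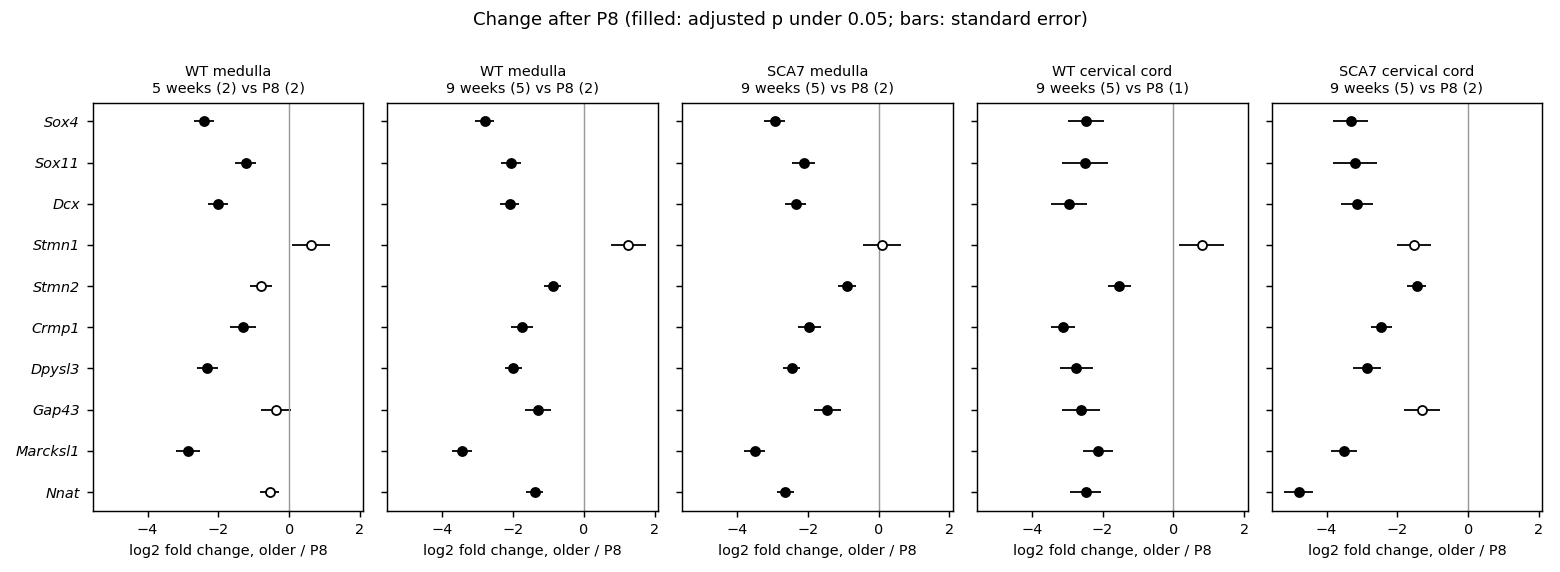
Log2 change after P8 with its SE (bars) for the 10 genes on the horizontal axis. The first panel is WT medulla from P8 to 5 weeks, and the others are P8 to 9 weeks for each tissue and genotype. At 9 weeks *Marcksl1* lies at -3.45 and -3.50 in WT and SCA7 medulla and *Nnat* at -4.79 in the SCA7 cord. The points of *Stmn1* lie about 0 or above it except in the SCA7 cord.

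Part of the fall was already seen at 5 weeks. In the WT medulla 6 of 10 genes were lower at 5 weeks than at P8 (12.3% of all genes lower): *Marcksl1* (-2.87 ± 0.34, adjusted P = 1.7e-05), *Sox4* (-2.41 ± 0.28), *Dpysl3* (-2.31 ± 0.29), *Dcx* (-2.01 ± 0.28), *Crmp1* (-1.30 ± 0.37) and *Sox11* (-1.23 ± 0.30, adjusted P = 0.0078). *Nnat* (-0.55 ± 0.27, adjusted P = 0.18), *Stmn2* (-0.80 ± 0.30, adjusted P = 0.074), *Gap43* (-0.37 ± 0.44, adjusted P = 0.63) and *Stmn1* (0.61 ± 0.53, adjusted P = 0.48) did not pass. *Crmp1* lost its call whichever of the 4 libraries was left out, and 4 or 5 genes then passed. The SCA7 libraries of 5 weeks were all shallow. In the SCA7 medulla 4 of 10 genes were lower at 5 weeks than at P8 (0.492% of all genes lower), *Nnat* among them at -2.51 ± 0.37 (adjusted P = 0.0038), with *Crmp1*, *Dpysl3* and *Marcksl1*. The count stayed at 4 without replicate 2 at P8 and was 0 without replicate 1 at P8 or either replicate of 5 weeks. In the SCA7 cord 7 of 10 were lower (0.584% of all genes lower). *Nnat* had 1 and 3 counts in the SCA7 cord libraries of 5 weeks, at 8.64 and 17.7 CPM, and a log2 change of -5.37 ± 0.70 (adjusted P = 5.5e-04). *Sox11* had no count in either, and was at least 4.26-fold lower than at P8 (80.8 and 104.8 CPM) against 3 counts per library. The count of 7 became 5 without SCA7 cord replicate 2 at P8 and 2 without replicate 1 at P8 or either replicate of 5 weeks. *Nnat* kept its call in all 4 of these fits, and *Sox4* and *Sox11* kept it in none. Between 5 and 9 weeks none of the 10 genes passed in WT medulla, SCA7 medulla, WT cord or SCA7 cord, where 0.0615%, 0.00473%, 0.0352% and 0.0503% of all genes did. The *Nnat* change between these ages in WT medulla was -0.84 ± 0.24 (unadjusted P = 0.0022, adjusted P = 0.36).

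The second question was whether SCA7 altered the genes at each age. At 9 weeks a single gene of the 10 passed in each tissue, and it was *Nnat* in both, lower in SCA7. Of all genes, 2.41% were lower in SCA7 medulla and 3.54% in SCA7 cord.

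In the cord at 9 weeks *Nnat* was at 169.5, 29.9, 58.4, 180.7 and 93.5 CPM in WT and at 15.4, 7.19, 18.8, 23.4 and 27.9 CPM in SCA7 mice. The groups did not overlap, with means of 106 ± 66.8 and 18.5 ± 7.89 CPM (SD, n = 5). The 3 shallow SCA7 libraries held 1 to 3 *Nnat* counts, but the deep ones held 781 and 1088 against 4152 and 3394 in deep WT libraries. The log2 change was -2.37 ± 0.40 (adjusted P = 0.0030), and among deep libraries alone -2.32 ± 0.31 (adjusted P = 0.13, with 2 libraries against 2). It ran from -2.71 to -1.98 over the alternatives, and passed the threshold in all of them except the deep libraries alone, while a minimum of 10 counts in every library left it untested.

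In the medulla at 9 weeks the WT values of *Nnat* were 67.3, 120.9, 146.9, 123.4 and 157.3 CPM and the SCA7 values 25.1, 73.8, 65.5, 66.4 and 72.2 CPM. The groups overlapped through 1 shallow WT library, and the means were 123 ± 34.8 and 60.6 ± 20.2 CPM (SD, n = 5). The log2 change was -0.96 ± 0.26 (adjusted P = 0.040). The direction was the same in every alternative, but the call was not: the adjusted P was 0.071 with DESeq2 and 0.34 with the bias-adjusted test, and it missed the threshold in 8 of 10 fits that left out a library. Among the deep medulla libraries alone the change was -1.03 ± 0.12 (adjusted P = 0.0024).

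*Blcap*, the gene whose span contains *Nnat*, overlapped between the genotypes at 9 weeks, at 50.05 to 90.05 CPM in WT cord and 38.4 to 84.8 CPM in SCA7 cord, and at 40.8 to 90.8 and 47.0 to 103 CPM in the medulla. Several marker lists moved with *Nnat*, where 2.41% of all genes were lower in SCA7 medulla and 3.54% in SCA7 cord. Markers of meningeal fibroblasts, which line the tissue, were lower in 9-week SCA7 cord for 10 of 10 genes of a list, with summed levels of 139 to 1471 CPM in WT and 38.4 to 84.2 CPM in SCA7 cord, and none of the 10 at 0 in all libraries of a group. In the medulla, where *Nnat* was lower too, the same sum was 106 to 262 CPM in WT and 101 to 381 CPM in SCA7. Oligodendrocyte markers were lower for 14 of 15 genes in the cord, with sums of 33309 to 105715 CPM in WT and 15737 to 36545 CPM in SCA7, and for 9 of 15 in the medulla, with sums of 18897 to 44971 and 9938 to 37519 CPM. Astrocyte markers were lower without overlap of their sums in both tissues, for 9 of 15 genes in the cord (4939 to 9027 CPM in WT, 2267 to 3360 CPM in SCA7) and 10 of 15 in the medulla (4520 to 6153 and 1828 to 2605 CPM). Microglia markers were lower for 3 of 10 genes in the medulla (219 to 280 and 114 to 188 CPM) and 1 of 10 in the cord (169 to 491 and 93.9 to 230.2 CPM). Red blood cell markers were lower for 5 of 5 genes in the cord (59.8 to 414 and 0 to 48.0 CPM) and 3 of 5 in the medulla (32.9 to 84.3 and 0 to 87.2 CPM). Schwann cell genes summed to 259 to 455 CPM in WT and 101 to 208 CPM in SCA7 cord. In the medulla these sums overlapped (89.8 to 421 and 109 to 219 CPM). Oligodendrocyte precursor and committed precursor genes summed to 1476 to 3492 and 945 to 1383 CPM in the cord, and overlapped in the medulla (921 to 1589 and 896 to 2389 CPM). The part of these cells in the *Nnat* result was not tested. Of 20 mature neuron genes 1 was lower in each tissue and none higher.

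**Figure D3:**
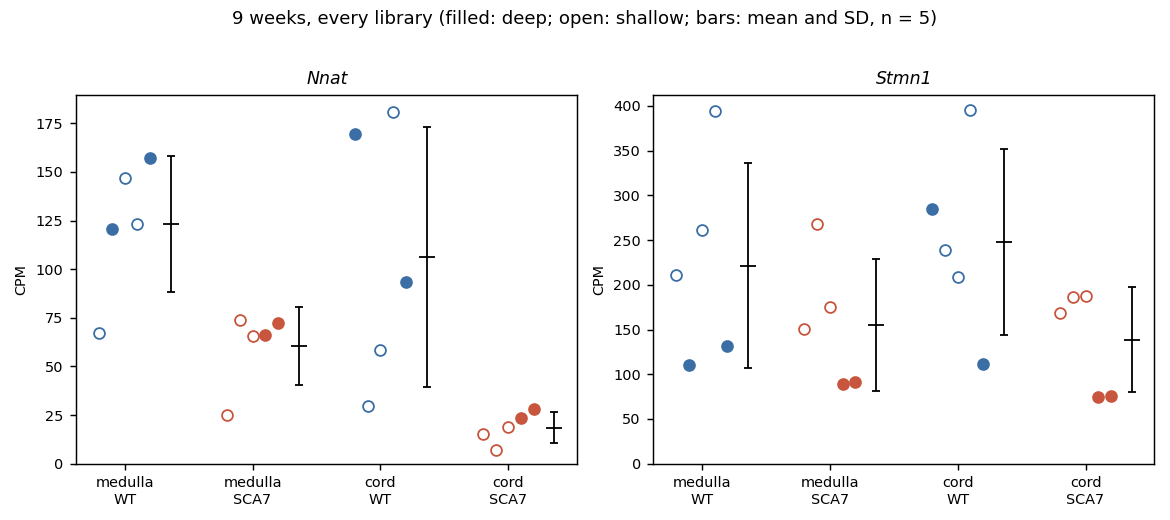
CPM of *Nnat* and *Stmn1* in each 9-week library (vertical axes, linear from 0), by tissue and genotype, with filled points for deep and open points for shallow libraries and bars for the mean and SD of 5. *Nnat* in SCA7 cord lies between 7.19 and 27.9 CPM, below all WT libraries, and *Stmn1* is highest in shallow libraries of each group apart from 1 deep WT cord library at 285.1 CPM.

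*Stmn1* was also lower in SCA7 at 9 weeks, without passing the test. In the medulla the deep libraries had 110.1 and 131.1 CPM in WT and 89.2 and 91.0 CPM in SCA7, and the shallow ones 210.4 to 394.7 and 150.8 to 268.4 CPM. The log2 difference was -0.50 ± 0.43 with all libraries (adjusted P = 0.59) and -0.45 among the deep ones (adjusted P = 0.021). In the cord *Stmn1* had 285.1 and 111.6 CPM in deep WT and 74.4 and 75.4 CPM in deep SCA7 libraries, and 208.5 to 395.8 against 168.9 to 187.8 CPM in shallow ones. The SCA7 values were lower than the WT values within each class of depth. The log2 difference was -0.92 ± 0.39 (adjusted P = 0.23), and -1.06 with the class of depth as a block (adjusted P = 0.019).

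The other 8 genes gave no call between genotypes at 9 weeks. In the medulla their log2 differences ran from -0.16 (*Dpysl3*, SE 0.25) to 0.14 (*Sox11*, SE 0.19), with *Stmn2* at 0.04 ± 0.23, *Crmp1* at 0.04 ± 0.28, *Dcx* at 0.07 ± 0.20, *Gap43* at -0.11 ± 0.34, *Sox4* at -0.04 ± 0.21 and *Marcksl1* at 0.14 ± 0.33. In the cord they ran from -0.86 ± 0.35 for *Marcksl1* (adjusted P = 0.21) to 0.84 ± 0.45 for *Dcx* (adjusted P = 0.37). *Marcksl1* in deep cord libraries was at 150.7 and 63.2 CPM in WT and 47.4 and 56.5 CPM in SCA7. *Dcx* there was at 8.78 and 12.4 CPM in WT and 20.1 and 20.5 CPM in SCA7, so that the deep SCA7 libraries stood above the deep WT ones. The values of *Stmn2* (0.05 ± 0.23), *Dpysl3* (0.12 ± 0.32), *Crmp1* (0.34 ± 0.26), *Gap43* (-0.20 ± 0.39), *Sox4* (-0.52 ± 0.48) and *Sox11* (0.00 ± 0.55) were within 1.5 SE of 0.

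**Figure D4:**
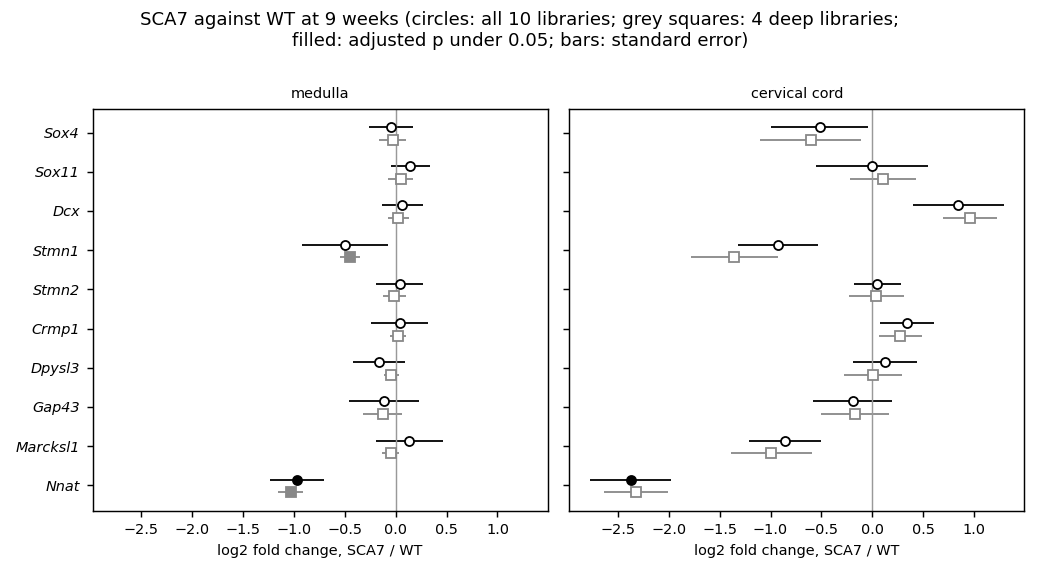
Log2 difference of SCA7 from WT at 9 weeks with its SE (bars) for the 10 genes on the horizontal axis, in a panel for each tissue. Circles are fits of all libraries and grey squares fits of the deep ones alone, and filled points have an adjusted P under 0.05. The circles of *Nnat* lie at -0.96 in the medulla and -2.37 in the cord, and those of the other genes lie between -0.92 and 0.84.

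Before 9 weeks the groups were small. At 5 weeks in the medulla *Stmn1* was higher in SCA7, at 370.0 and 271.8 CPM against 129.5 and 143.2 CPM in WT, a log2 difference of 1.36 ± 0.22 (adjusted P = 0.045, with 0.787% of all genes higher). All SCA7 libraries of this comparison are shallow and all WT libraries deep, and at 9 weeks *Stmn1* differed between the classes of depth by a like 1.35, so genotype and depth cannot be told apart. *Nnat* was at 61.7 and 67.9 CPM in SCA7 and 256.9 and 211.5 CPM in WT medulla at 5 weeks, with a log2 difference of -1.72 ± 0.29 (adjusted P = 0.057) under the same limit. In the cord at 5 weeks none of the 10 genes passed, where 0.728% of all genes did in either direction. *Nnat* was at 8.64 and 17.7 CPM in SCA7 and at 47.3 and 66.2 CPM in WT cord, a log2 difference of -1.97 ± 0.76 (adjusted P = 0.60), and the groups did not overlap. At P8 in the medulla no gene was called by edgeR or DESeq2 (0% of all genes), and 559 and 206 genes had an unadjusted P under 0.05. The SCA7 values of *Nnat* there were 377.2 and 368.4 CPM against 314.4 and 315.1 CPM in WT (0.28 ± 0.19), so *Nnat* was not lower at that age.

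Whether the change of genotype depended on age or tissue was tested directly. For none of the 10 genes did the change between P8 and 9 weeks differ between genotypes, in the medulla (0.0237% of all genes called) or the cord (0.00503%). For *Nnat* this difference came to -1.24 ± 0.36 (medulla, adjusted P = 0.24) and -2.32 ± 0.70 (cord). For the difference between tissues at 9 weeks *Nnat* had -1.14 ± 0.40 (adjusted P = 0.18) and *Dcx* 0.71 ± 0.23 (adjusted P = 0.12), where 2.78% of all genes passed. With the class of depth as a block *Nnat* passed for age in the medulla (adjusted P = 0.038) and for tissue (adjusted P = 0.010).

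The cord and the medulla of the same mice were then compared. In SCA7 mice at 9 weeks *Nnat* was lower in the cord by a log2 value of -1.47 ± 0.11 (adjusted P = 1.9e-38), and the cord value was below the medulla value in 5 of 5 mice. With the bias-adjusted test the value was -1.66 (adjusted P = 0.37), and with DESeq2 the adjusted P was 2.5e-07. *Gap43* (-0.46 ± 0.11, adjusted P = 8.8e-04) and *Crmp1* (-0.34 ± 0.11, adjusted P = 0.022) passed in the same comparison, where 5.52% of all genes were lower, but neither did with DESeq2 (adjusted P = 0.40 and 0.93). In WT mice at 9 weeks the *Nnat* difference was -0.34 ± 0.30 (adjusted P = 0.87). Some of these WT mice had cord and medulla libraries of different depth classes. *Marcksl1* was higher in the WT cord by 1.01 ± 0.32 (adjusted P = 0.046, with 2.31% of all genes higher), and lost the call in each of 10 fits without a library. Of the meningeal list, 8 of 10 genes were also higher in the WT cord, and its part in this was not tested.

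At 5 weeks, over both genotypes, *Nnat* was lower in the cord by -1.92 ± 0.30 (adjusted P = 4.5e-08) and *Gap43* by -1.03 ± 0.28 (adjusted P = 0.012), where 1.8% of all genes were lower. The *Nnat* call held with the bias-adjusted test (adjusted P = 0.0023) and with DESeq2 (adjusted P = 2.7e-04), and that of *Gap43* did not (adjusted P = 0.26 and 0.50). In WT mice of that age the *Nnat* values were 256.9 and 211.5 CPM in the medulla and 47.3 and 66.2 CPM in the cord. At P8 *Stmn1* was higher in the cord by 1.13 ± 0.26 (adjusted P = 0.0014, with 0.859% of all genes higher), but not with the bias-adjusted test (adjusted P = 0.36). The pair of deep libraries from a WT mouse had 132.3 CPM in cord and 88.9 CPM in medulla. In the SCA7 mice the cord libraries were shallow, at 359.2 and 362.9 CPM, and the medulla libraries deep at 99.9 CPM and shallow at 184.2 CPM. Depth and tissue thus differ together in 1 of the 3 mice, and the log2 value ran from 0.68 to 1.48 as libraries were left out. *Nnat* at P8 was at 577.7 CPM in the WT cord against 314.4 and 315.1 CPM in the WT medulla (0.70 ± 0.30 over both genotypes, adjusted P = 0.31).

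Other genes of young neurons were taken from 3 lists, and those named here were picked by level and not by change. From P8 to 9 weeks in WT medulla, 7 of 15 cytoskeleton genes fell and 0 rose, with a median log2 change of -0.82, where 14.8% of all genes were lower and 7% higher. *Tuba1a*, the main neuronal alpha-tubulin, fell by -1.43 ± 0.23 (adjusted P = 2.6e-04), while *Tubb3* (-0.05 ± 0.20) and *Map1b* (0.26 ± 0.23) did not pass. Of 12 membrane and adhesion genes 5 fell and 1 rose (median -0.55). *Nfasc* and *Ncam1*, both adhesion molecules of axons, fell by -1.60 ± 0.24 and -1.07 ± 0.34 (adjusted P = 1.3e-04 and 0.029), and *Gpm6b* was at 0.19 ± 0.22. Of 16 nuclear and RNA-binding genes 6 fell and 0 rose (median -0.41), and the neuronal Elav genes were at -0.20 ± 0.39 (*Elavl3*), 0.21 ± 0.25 (*Elavl2*) and 0.40 ± 0.22 (*Elavl4*). In the WT cord 7 of 15, 7 of 12 and 8 of 16 genes of the lists fell and 0, 2 and 0 rose, where 7.73% of all genes were lower and 5.84% higher. Of 20 mature neuron genes 0 fell and 5 rose in the WT medulla, with a median of 0.65, beside the 7% of all genes that were higher. Proliferation genes fell in 20 of 20 cases (median -4.08), from summed levels of 370 to 421 CPM at P8 to 16.4 to 51.8 CPM at 9 weeks, and their link to the 10 genes was not tested.

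Between genotypes at 9 weeks, the same 3 lists had few calls. In the cord 3 of 15 cytoskeleton genes were lower in SCA7, where 3.54% of all genes were, and these, named after their values were seen, were *Stmn4* (-1.29 ± 0.24, adjusted P = 0.0058), *Tuba1a* (-1.07 ± 0.19, adjusted P = 0.0040) and *Tubb2b* (-0.99 ± 0.25, adjusted P = 0.033). *Tuba1a* was at 524 to 788 CPM in WT cord and 244 to 356 CPM in SCA7 cord, without overlap, and at 421 to 570 and 234 to 469 CPM in the medulla (-0.48 ± 0.21, adjusted P = 0.21). None of the 12 membrane genes passed in either tissue. Among nuclear and RNA-binding genes *Neurod1* was lower in SCA7 medulla (-1.01 ± 0.23, adjusted P = 0.016, with 2.41% of all genes lower) and *Igf2bp3* higher in both tissues (with 4.56% of all genes higher in the medulla and 1.52% in the cord), both also named after their values were seen. *Neurod1* had 0 or 1 count in the shallow medulla libraries of 9 weeks. The deep ones had 11.4 and 9.55 CPM in WT and 6.22 and 3.97 CPM in SCA7. The sum of the granule cell list, whose part was not tested, was 147 to 666 CPM in WT and 182 to 307 CPM in SCA7 medulla.

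*Igf2bp3* encodes an RNA-binding protein that is mainly made by embryonic and other immature cells. In the deep WT libraries it was at 3.24 and 4.62 CPM in the medulla at P8 and at 2.89 CPM in the cord, and by 9 weeks at 0.0262 and 0.0830 CPM in the medulla and 0.0408 and 0.0551 CPM in the cord, which are 1 to 3 counts. In the deep SCA7 libraries it was at 3.43 CPM in the medulla at P8. At 9 weeks it was at 3.18 and 3.48 CPM in the medulla and 3.26 and 2.76 CPM in the cord, on 108 to 121 counts. The deep SCA7 libraries of 9 weeks were thus at the level of P8, and the fitted log2 differences from WT were 5.61 ± 0.63 (adjusted P = 1.8e-04) and 5.91 ± 0.64 (adjusted P = 3.1e-04). The 6 shallow WT libraries of 9 weeks held 0 or 1 count and the 6 shallow SCA7 ones 0 to 3, so these values rest mainly on 2 deep libraries a group. None of the 10 genes had this pattern in the deep libraries. The SCA7 libraries of 5 weeks, all shallow, held no *Igf2bp3* count, where 1 count was worth 5.89 to 8.79 CPM. Its course in SCA7 between P8 and 9 weeks can thus not be told.

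The genes whose levels ran most like the mean of the 10 over the 15 deep libraries, among 10617 with a mean of at least 10 CPM, were *B4galt2* (Pearson r = 0.992), *Rac3* (0.988), *Hrk* (0.986), *Dtx4* (0.986), *Fgd1* (0.986), *Cdh13* (0.985), *Dcakd* (0.983), *Nectin2* (0.982), *Nol4l* (0.981) and *Chadl* (0.981). *Rac3* had a mean of 79.3 CPM in 4 deep P8 libraries and 15.8 CPM in 11 later ones, and *B4galt2* 76.0 and 27.0 CPM. The libraries share age classes, and these values of r describe that order. Each of the 10 genes followed the mean of the other 9 with r from 0.79 (*Stmn2* and *Nnat*) to 0.96 (*Sox4*), apart from *Stmn1* at -0.06. Over the 11 deep libraries later than P8 the values were 0.77 for *Gap43*, 0.69 for *Stmn1*, 0.66 for *Sox4*, 0.65 for *Nnat* and 0.61 for *Sox11*, but -0.44 for *Dcx*, -0.66 for *Dpysl3* and -0.74 for *Stmn2*. The genes apart from *Stmn1* thus shared the step from P8, and the 10 genes shared no single order after it.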

How the data were processed

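Reads had been mapped by the authors to the mouse genome (mm10 per the labels), reads with a single location kept, and 1 table of raw counts per gene symbol deposited for each of 35 libraries. The aligner, the counting tool and the use of strand were not given in the sources used here. The 10 genes and all lists of other genes were chosen with earlier results of these data known.

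Counts were tested in R 4.3.3 with the edgeR 4.0.16 quasi-likelihood F test (settings of earlier releases, TMM scaling), over every gene that reached 10 counts in any library of the fit. P values were adjusted by Benjamini-Hochberg, and 0.05 was the threshold. Genotypes were compared within a tissue and age, ages over all libraries of a tissue, and tissues with the mouse as a block. The mouse labels give that pairing. Deviations of paired tissues correlated with r of 0.52 to 0.93 in SCA7 and -0.69 to 0.89 in WT mice of 9 weeks. The negative values were in the WT mice whose libraries differed in class of depth. These correlations follow depth and cannot serve as a check of the pairing. Libraries of a group are separate mice. For 21 replicate pairs of the same depth class the lowest chi-square per degree of freedom was 1.06, where counting noise alone gives about 1. No P value was computed for these pairs. Alternatives were DESeq2 1.42.0, its size factors, library totals, other filters, the bias-adjusted test, thinned counts, deep or shallow libraries alone, depth or replicate number as a block and leaving out each library. The fits were tested on simulated data with 200 changed genes. With the main settings, 31 of 193 calls for SCA7 against WT medulla at 9 weeks fell on unchanged genes. For WT medulla at 9 weeks against P8 these were 13 of 134 calls. For WT cord against medulla at 9 weeks 215 of 356 calls fell on unchanged genes, and 4 of 141 with the bias-adjusted test. Calls between tissues with the main settings are thus to be read with those of the bias-adjusted test.

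All 10 genes were named, of each list of young-neuron genes the 3 with the highest mean CPM, and the 10 genes most like the members by r on log2(CPM + 1) over libraries above 1000000 counts. Promoter windows came from RefSeq on GRCm38.p6, with 6 of the 10 genes matched, and exon lengths from GENCODE. *Dpysl3* is given without its position. The difference between genotypes in the P8 cord, with 1 WT library, is not reported here.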

Additional observations from a re-analysis of the deposited data

Results flagged for a closer look

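In 5 of 40 sets of 5 libraries of 9 weeks (10 genes in 4 groups) 1 library lay far from the other 4 by Dixon's ratio, where chance gives about 1 in 20 sets, and in each the library was shallow. *Dpysl3* was highest in SCA7 cord replicate 3 at 281.8 CPM (45 counts), with the next at 121.1 CPM. *Dpysl3* in SCA7 medulla was highest in replicate 2 at 174.5 CPM (26 counts), with the next at 109.9 CPM. *Marcksl1* was highest in the same library at 93.9 CPM (14 counts), with the next at 44.0 CPM, and this library had the highest mitochondrial share of the series at 60.7%. *Nnat* was lowest in SCA7 medulla replicate 1 at 25.1 CPM (3 counts), with the next at 65.5 CPM. *Sox4* was highest in WT medulla replicate 3 at 24.5 CPM (3 counts), with the next at 9.65 CPM.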

How the results depend on the processing

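Of 1272 alternative values of 78 single-gene results, 1060 kept direction and side of the threshold, 174 lost the call, 24 gained one and 14 turned direction. The number of the 10 genes called (main value first) moved as follows. For SCA7 against WT medulla at 9 weeks it was 1, and 0 with DESeq2, library totals, no filter, the bias-adjusted test, thinned counts, shallow libraries, the replicate number as a block or 10 counts in every library, and 2 with deep libraries or depth as a block. In the cord at 9 weeks it was 1, and 2 with depth or the replicate number as a block and 0 with deep libraries or 10 counts in every library. In the medulla at 5 weeks it was 1, with 2 for DESeq2 and no filter, 3 for thinned counts and the replicate block, and 0 for all libraries of the tissue and the bias-adjusted test. For WT cord against medulla it was 1, with 2 for depth as a block and 0 for DESeq2, the bias-adjusted test, thinned counts, library totals, no filter, shallow libraries, no replicate block or 10 counts in every library. In SCA7 mice it was 3, with 1 for DESeq2, library totals and no replicate block, and 0 for the bias-adjusted test, thinned counts, shallow libraries and 10 counts in every library. At 5 weeks it was 2, with 1 for DESeq2, the bias-adjusted test and thinned counts, and 0 for shallow libraries and 10 counts in every library. At P8 it was 1, with 3 for DESeq2 and 0 for the bias-adjusted test, no replicate block and 10 counts in every library. The difference of genotype between tissues, 0, became 2 with deep libraries and 1 with depth as a block, and that between ages in the medulla, 0, became 1 with depth as a block. From P8, WT medulla at 5 weeks (6) gave 2 with thinned counts and with 10 counts in every library, and at 9 weeks (9) 5 and 2. SCA7 medulla at 5 weeks (4) gave 7 from its 2 groups alone, 1 with library totals or 10 counts in every library and 0 with shallow libraries, and at 9 weeks (9) 5 with thinned counts, 3 with shallow libraries and 2 with 10 counts in every library. With that filter, which left 2 to 7 of the 10 genes to test, SCA7 cord gave 1 at 5 weeks (7) and 2 at 9 weeks (8), and WT cord 1 at 9 weeks (9).

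Leaving out each library in turn gave 0 to 1 for the medulla and 1 to 2 for the cord at 9 weeks, 0 to 3 and 0 to 2 at 5 weeks, 4 to 5 for WT medulla at 5 weeks against P8, 7 to 9 at 9 weeks against P8 and 0 to 1 at 9 against 5 weeks, 0 to 4 and 3 to 9 for SCA7 medulla at 5 and 9 weeks against P8, and 2 to 5 and 6 to 8 for SCA7 cord. It gave 0 to 1 for WT and 1 to 4 for SCA7 cord against medulla at 9 weeks, 1 to 3 at 5 weeks, and 0 to 1 for the difference of genotype between tissues. For *Stmn1* it gave log2 values of -0.29 to 0.13 in SCA7 cord at 5 weeks and -0.40 to 0.42 in SCA7 medulla at 9 weeks, both against P8.

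The log2 values that turned direction were for *Crmp1* in SCA7 cord against medulla (0.051 thinned, 0.21 shallow), *Gap43* there (0.29 thinned), *Stmn1* in SCA7 cord at 5 weeks against P8 (0.14 thinned, 0.16 no filter, 0.11 shallow, 0.13 for 2 groups alone, 0.13 without SCA7 cord replicate 1 at 5 weeks) and *Stmn1* in SCA7 medulla at 9 weeks against P8 (-0.28 deep, -0.21 depth as a block, -0.033 thinned, -0.24 library totals, -0.14 without replicate 2 at 9 weeks, -0.40 without replicate 1 at P8). The cause was not tested. Same-numbered WT and SCA7 libraries of 9 weeks correlated with r of -0.77 to 0.93. The values were negative where the classes of depth differed and positive where they matched. They follow depth and cannot show whether the replicate number pairs WT with SCA7 mice. Library totals moved the median of all genes by 0.30 in the cord at 9 weeks, and DESeq2 by 0.69 in the medulla at 5 weeks and 1.13 for SCA7 medulla at 5 weeks against P8. Depth limits *Sox4*, *Sox11* and *Dcx* most, at 0 to 4 counts in shallow adult libraries.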
